A study of Mus musculus with 10 samples.

Results

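The genes of the proteasome, the large protease that degrades ubiquitin-tagged proteins, were followed in microglia, the resident macrophages of the brain. Members were all genes in the count tables whose symbol starts with Psma to Psmg followed by a digit, without Psmb8, Psmb9 and Psmb10. This gave 47 of 18284 gene symbols, of which 16 encode the core (Psma and Psmb), 21 carry the symbols of the cap (Psmc and Psmd) and 10 those of regulators (Psme, Psmf and Psmg). All cells came from C57BL/6 mice and were sorted by flow cytometry as live CD11b-positive cells with intermediate CD45, and RNA was read with the 10x Genomics 3' chemistry, which counts unique molecular identifiers (UMIs). The 5 groups of 2 libraries each were microglia taken directly from adult brain, *in vitro* microglia from mixed glial culture after 3 weeks, and slice microglia from organotypic brain slices kept for 1 day, 1 week or 3 weeks. The slices and the mixed glial cultures were made from neonatal pups, so adult microglia differ from the cultured groups in age as well as in culture. Slices were pooled as needed, and the mixed glial cultures hold cortical glia without the tissue structure. The series describes the libraries of a group as biological replicates. No inflammatory stimulus or genetic change was given to any group. The slice medium received human PDGF at each medium change, which the published methods do not list for the mixed glial cultures. Slices and mixed glial cultures also differed in medium and temperature.

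The proteasome is built around a barrel of stacked rings. Outer rings of alpha subunits (Psma) gate the entry, and inner rings of beta subunits (Psmb) hold the proteolytic sites, of which Psmb5, Psmb6 and Psmb7 carry the chymotrypsin-like, caspase-like and trypsin-like activities. In cells exposed to interferon-gamma, and in many immune cells at rest, Psmb8, Psmb9 and Psmb10 take the places of these subunits and form the immunoproteasome. The cap, or regulatory particle, has a base with the ATPases Psmc1 to Psmc6, which unfold substrates, and a lid with the deubiquitinase Psmd14, which removes the ubiquitin chain. Other activators (Psme1 and Psme2, which form PA28, Psme3 and Psme4) can replace the cap, Psmf1 was first described as an inhibitor, and Psmg1 to Psmg4 are chaperones that help assemble the core. Psmc3ip is found by its symbol only, since it encodes a recombination factor and no proteasome subunit. Psma8 is a testis-type relative of Psma7, Psmd5, Psmd9 and Psmd10 are chaperones of the base, and Psme2b is a retrocopy of Psme2 with which it may share reads.

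Transcription of proteasome genes is known to be driven by Nfe2l1 through antioxidant response elements, and many housekeeping promoters hold binding sites of ETS factors. RefSeq promoters (GRCm38.p6, 300 bases, 250 before to 50 after the annotated start) were found for 39 of the 47 genes. The letters TGACNNNGC, searched on both strands, were present in any promoter of 6 genes (15.4%), Psmb5, Psmb6, Psmc6, Psmd9, Psmd12 and Psme4, against 17.3% of 9168 fitted genes with a promoter and 3781 of all 27025 genes with one. The ETS core CGGAAG was present in 23 genes (59.0%), against 36.1% and 18.8%. CCAAT was in 14 (35.9%, against 43.2% and 41.1%) and GGGCGG in 22 (56.4%, against 68.4% and 38.2%). These are matches of letters, and binding was not measured. The 4 promoters printed here were picked for the roles of their genes and for the letters they hold: both proteolytic subunits with TGACNNNGC, an ATPase with both motifs and the lid deubiquitinase with CGGAAG. Capitals mark TGACNNNGC and CGGAAG on either strand, and the start site follows base 250.
Psmb5 promoter, chr14:54617946-54618245, reverse strand: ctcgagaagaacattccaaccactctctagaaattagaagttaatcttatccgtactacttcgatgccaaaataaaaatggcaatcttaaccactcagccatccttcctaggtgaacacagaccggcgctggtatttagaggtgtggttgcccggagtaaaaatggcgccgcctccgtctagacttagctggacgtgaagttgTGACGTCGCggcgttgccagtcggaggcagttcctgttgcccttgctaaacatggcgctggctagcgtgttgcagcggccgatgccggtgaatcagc
Psmb6 promoter, chr11:70525107-70525406, forward strand: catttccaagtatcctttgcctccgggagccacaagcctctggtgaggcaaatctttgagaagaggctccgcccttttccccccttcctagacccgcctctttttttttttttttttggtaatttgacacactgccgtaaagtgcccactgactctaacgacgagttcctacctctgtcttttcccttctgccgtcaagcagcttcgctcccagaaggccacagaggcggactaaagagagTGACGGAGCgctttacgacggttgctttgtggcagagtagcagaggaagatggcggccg
Psmc6 promoter, chr14:45329574-45329873, forward strand: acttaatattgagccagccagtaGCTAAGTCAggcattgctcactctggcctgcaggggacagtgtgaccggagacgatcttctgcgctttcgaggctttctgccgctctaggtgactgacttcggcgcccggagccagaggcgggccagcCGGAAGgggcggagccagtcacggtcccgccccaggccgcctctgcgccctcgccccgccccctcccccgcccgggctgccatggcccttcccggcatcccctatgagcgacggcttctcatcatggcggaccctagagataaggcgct
Psmd14 promoter, chr2:61711444-61711743, forward strand: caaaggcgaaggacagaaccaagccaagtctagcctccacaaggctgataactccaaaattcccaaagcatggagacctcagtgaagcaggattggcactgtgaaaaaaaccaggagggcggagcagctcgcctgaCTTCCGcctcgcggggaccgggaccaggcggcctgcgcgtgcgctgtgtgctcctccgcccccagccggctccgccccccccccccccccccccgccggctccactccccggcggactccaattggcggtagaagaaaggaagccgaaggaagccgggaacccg

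Cells were kept with at most 5% of UMIs from mitochondrial genes, at least 400 genes and at most 30000 UMIs, and 19059 of 19637 barcodes remained, with 61 to 3799 cells and 385373 to 39689540 UMIs per library. Of 18840 distinct barcodes, 218 occurred in more than 1 library. All 7 microglial markers were detected in every library, at a summed 4434 to 22425 CPM (here UMIs scaled to the size of the library alone). The sum was lowest in slice 1 day and highest in adult. The slice 1 day libraries also held cells with neutrophil markers, 68 of 518 in replicate 1 and 114 of 1014 in replicate 2, and slice 1 week replicate 1 held 25 of 148. Slice 1 day and slice 1 week replicate 1 were the only libraries with all 7 neutrophil markers, at 7570, 22301 and 40070 summed CPM, while slice 1 week replicate 2 had 955 and the other 6 libraries 1.03 to 7.99. Of 5 monocyte markers, all 5 were detected in those same 3 libraries, at 154 to 850 summed CPM, against 0 to 7.10 elsewhere. Red cell genes had 1686 summed CPM in adult replicate 1 and 3093 in slice 1 day replicate 1, against at most 0.895 elsewhere, and astrocyte genes had 152 and 148 in adult against 3.88 to 33.8 elsewhere. Counts without neutrophil-marker, monocyte-marker and cycling cells are given below, and the part of red cell and astrocyte RNA was not tested. Adult replicate 1 and slice 3 weeks replicate 1 carry another study identifier than the other 8 libraries.

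Proteasome genes took the largest share of UMIs in slice 1 day microglia. They held 0.919% and 0.981% of UMIs there, against 0.522% and 0.562% in adult, 0.666% and 0.680% *in vitro*, 0.564% and 0.614% in slice 1 week, and 0.605% and 0.541% in slice 3 weeks. The slice 1 day and *in vitro* libraries lay above both adult libraries and above every 1 week and 3 week library, whereas slice 3 weeks overlapped with adult and with slice 1 week. The core held 0.265% ± 0.0101 (SD, n = 2) in adult and 0.524% ± 0.0259 in slice 1 day. The cap held 0.215% ± 0.0185 and 0.329% ± 0.0189, and the regulators 0.0626% ± 0.00039 and 0.0963% ± 0.000838. *In vitro*, the core held 0.373% ± 0.00656 while the cap, at 0.226% ± 0.00648, lay within the spread of adult. These shares were not tested. A two-sided exact permutation test of 2 libraries with 2 others cannot go below p = 0.333, and no test of the shares over all libraries was run. Within the study identifier of adult replicate 1, slice 3 weeks was higher than adult (0.605% against 0.522%), and within the other it was lower (0.541% against 0.562%).

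**Figure D1:**
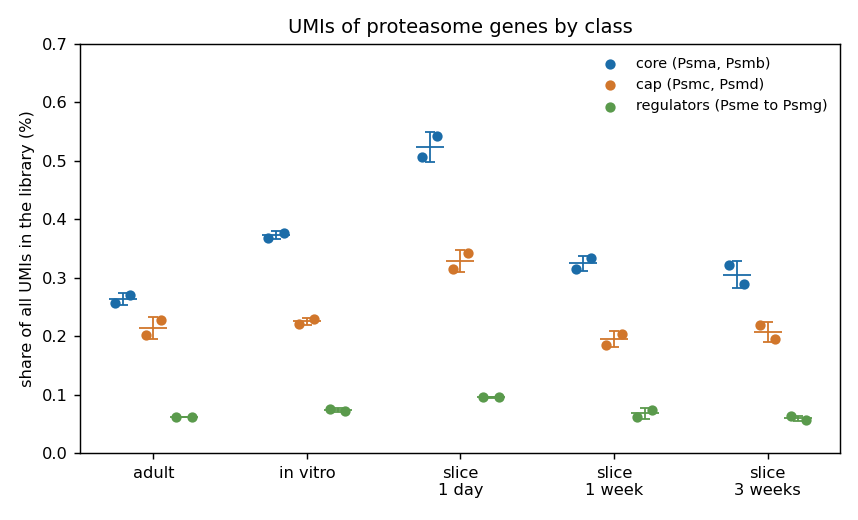
Share of all UMIs in a library (%, vertical axis) held by core, cap and regulator genes in the 5 groups. Points are libraries, bars are means and error bars are SDs (n = 2). The core in slice 1 day reached 0.506% and 0.543%, above every other library, and adult had the lowest core share at 0.257% and 0.272%.

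A cell held 17.0 and 10.8 proteasome UMIs on average in the adult libraries and 93.5 and 101 *in vitro*. The values were 65.0 and 92.3 in slice 1 day, 41.2 and 38.8 in slice 1 week, and 41.0 and 32.3 in slice 3 weeks. Median UMIs per cell moved with them, from 3257 and 1858 in adult to 12858 and 13966 *in vitro*, and larger cells and deeper reading cannot be told apart here. All fold changes below are therefore relative to the library, after TMM scaling. CPM of single genes in a library were scaled by library size and TMM factors. These factors were 1.10 and 1.14 in adult and 0.917 and 0.898 *in vitro*. Summed CPM of gene lists, and CPM of cycling and other cells, were scaled by total UMIs alone.

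In slice 1 day against adult, 32 of the 46 tested members rose (edgeR quasi-likelihood test, FDR < 0.05 and fold change > 1.5), where 24.9% of the 12155 tested genes were called higher. None fell, also at an unadjusted p under 0.05 or with DESeq2, where 25.4% of tested genes were called lower. Psmb11, a thymus-specific beta subunit, was the member not tested. The calls covered 14 of 15 core, 13 of 21 cap and 5 of 10 regulator genes. The median log2 fold changes were 1.05, 0.79 and 0.60 in these classes against -0.06 over all tested genes. Without cells holding cycling genes, neutrophil markers or monocyte markers, 33 members were called higher.

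The proteolytic subunits were among the strongest risers of the core. Psmb5 (chromosome 14, 54614119 to 54618022), whose promoter is printed above, had 137 and 124 CPM in adult and 328 and 354 in slice 1 day. The groups did not overlap, and the log2 fold change was 1.38 ± 0.14 (SE; adjusted p = 2.9e-05). Psmb6 (chromosome 11, 70525367 to 70527858) had 208 and 236 CPM in adult and 635 and 659 in slice 1 day. It rose by 1.54 ± 0.15 on the log2 scale (adjusted p = 1.6e-05), again with no overlap. Psmb7 (chromosome 2, 38588036 to 38644087) went from 101 and 80.9 CPM to 238 and 245, a log2 change of 1.41 ± 0.16 (adjusted p = 5e-05). Psmb4 (chromosome 3, 94884093 to 94886961), a beta subunit without a proteolytic site, had the largest fold change of all members in this comparison. Its CPM were 88.0 and 68.3 in adult against 248 and 285 in slice 1 day, and its log2 fold change was 1.77 ± 0.17 (adjusted p = 1.7e-05). Psmb2, a beta subunit next to the proteolytic ones, had 199 and 235 CPM in adult and 375 and 431 in slice 1 day (0.90 ± 0.15 on the log2 scale). The other called core genes, Psma1 to Psma7, Psmb1 and Psmb3, rose by 0.84 to 1.13 and were named after their values were seen.

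Among cap genes, Psmd8, a lid subunit, had 136 and 141 CPM in adult and 339 and 335 in slice 1 day (log2 fold change 1.28 ± 0.20, adjusted p = 0.00043). The deubiquitinase Psmd14 had 57.7 and 67.0 CPM in adult against 141 and 152 in slice 1 day, with a log2 fold change of 1.23 ± 0.15 (adjusted p = 9.5e-05). Psmd1, the scaffold of the base, went from 49.0 and 59.5 CPM to 110 and 130 (1.15 ± 0.19, adjusted p = 0.00047). Of the 6 ATPases, Psmc1, Psmc4, Psmc5 and Psmc6 rose by 0.79 to 1.20 (in thinned cells Psmc5, at 0.56, was not called), whereas Psmc2 (0.48 ± 0.16) and Psmc3 (0.27 ± 0.15) were not called. The base chaperones Psmd5 (0.21 ± 0.17), Psmd9 (0.37 ± 0.14) and Psmd10 (-0.20 ± 0.15) were not called, and Psmd10 was the only cap gene with a negative value. Psmc3ip, which is no subunit, was called (1.66 ± 0.42, adjusted p = 0.0066), with 4.25 and 3.09 CPM in adult and 11.5 and 12.1 in slice 1 day. Apart from those set out in the processing, the cap genes were named after their values were seen.

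The regulators were mixed. Psme2, a PA28 subunit, had 153 and 161 CPM in adult and 299 and 305 in slice 1 day (log2 fold change 0.94 ± 0.14, adjusted p = 0.00025). Its partner Psme1 had 179 and 155 against 234 and 222 CPM, and its log2 fold change of 0.45 ± 0.13 passed the FDR (adjusted p = 0.016) but not the fold limit. Psme3 rose from 37.9 and 44.3 CPM to 72.3 and 83.5 (0.93 ± 0.15, adjusted p = 0.00055). Psme4, which encodes PA200, had 11.0 and 9.27 CPM in adult and 11.8 and 10.8 in slice 1 day, so the groups overlapped (0.14 ± 0.26). Psmf1 had 26.1 and 28.2 against 28.8 and 33.8 CPM and was not called (0.22 ± 0.18). Of the core chaperones, Psmg4 (27.9 and 28.2 against 67.9 and 62.6 CPM; 1.22 ± 0.20) and Psmg1 (0.75 ± 0.17, and 0.39 and not called in thinned cells) rose, and Psmg2 (0.01 ± 0.17) and Psmg3 (0.35 ± 0.15) were not called. The retrocopy Psme2b was called (1.33 ± 0.35), but its reads are uncertain because of Psme2.

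**Figure D2:**
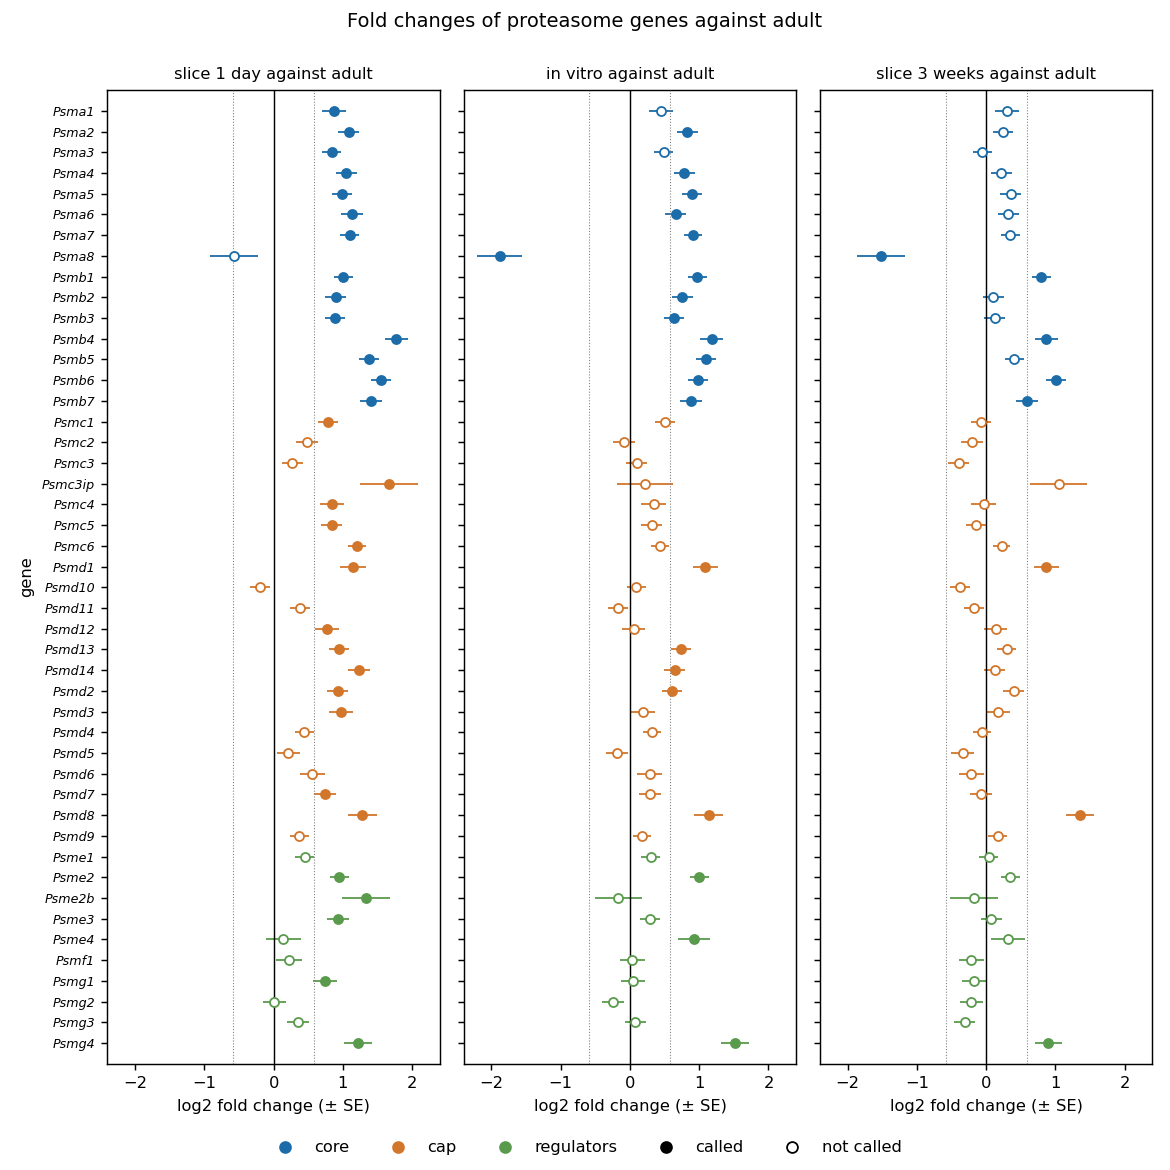
Log2 fold change against adult (horizontal axis, ± SE from the fit) of the 46 tested members in slice 1 day, *in vitro* and slice 3 weeks. Filled points were called (FDR < 0.05 and fold change > 1.5), open points were not, and dotted lines mark a fold of 1.5. All 3 panels share the adult libraries. In slice 1 day 32 filled points lie on the right, *in vitro* 20 and in slice 3 weeks 7.

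*In vitro* microglia were called higher than adult in most core genes, and in a share of cap genes near that of all tested genes. Of 46 members, 20 were called higher than in adult and 1 lower, where 22.4% and 28.5% of all tested genes were called. The called members were 12 of 15 core genes higher and 1 lower, 5 of 21 cap genes (23.8%) and 3 of 10 regulators. The difference between core and cap was not tested. Median log2 fold changes were 0.83, 0.29 and 0.18 for core, cap and regulators, against -0.11 over all tested genes. Scaled by library size without TMM, 11 members were called higher, 6 of them core, 2 cap and 3 regulator genes.

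Psmb5 had 274 and 287 CPM *in vitro* against 137 and 124 in adult, with no overlap (1.10 ± 0.14 on the log2 scale, adjusted p = 9.1e-05). Psmb4 had 169 and 186 CPM against 88.0 and 68.3 (1.18 ± 0.17, adjusted p = 0.00016). Psmb6 and Psmb7 rose by 0.98 ± 0.14 and 0.88 ± 0.16, and Psmb2 by 0.76 ± 0.15. In the cap, the called genes were Psmd8 (276 and 333 CPM against 136 and 141; 1.14 ± 0.20), Psmd1 (106 and 124 against 49.0 and 59.5; 1.09 ± 0.18), Psmd2, Psmd13 and Psmd14 (0.64 ± 0.15), of which Psmd2 and Psmd13 were named after their values were seen. None of the 6 ATPases was called, and their log2 fold changes ran from -0.08 in Psmc2 to 0.51 in Psmc1. Psmc1 passed the fold limit when any of several single libraries was left out, such as either *in vitro* library (0.63 in both cases), when all barcodes were kept (0.61), in cells thinned to 1500 UMIs (0.63), with only adult and *in vitro* in the fit (0.64) and with no filter on low counts (0.68). Psmc6 was called without *in vitro* replicate 1 (0.63) and with no filter on low counts (0.61). With library size alone, Psmb2 (0.45), Psmb7 (0.58), Psmd2 (0.30), Psmd13 (0.43) and Psmd14 (0.34) were not called. Psmd2 was also not called without adult replicate 1 (0.57) or with the study identifier as a covariate (0.58).

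The chaperone Psmg4 had the largest rise of all members *in vitro*, with 78.2 and 82.7 CPM against 27.9 and 28.2 in adult (1.52 ± 0.20, adjusted p = 1e-04). Psme2 had 319 and 310 CPM against 153 and 161 (1.00 ± 0.14, adjusted p = 0.00014), while Psme1 had 211 and 199 against 179 and 155 (0.30 ± 0.13) and was not called. Psme2 is a gene that interferon induces, and a list of 10 other interferon-induced genes had 1009 and 861 summed CPM *in vitro* against 432 and 278 in adult. In slice 1 day, where Psme2 was called higher as well, this list had 543 and 518 summed CPM. Psmb8 (0.25), Psmb9 (-0.01) and Psmb10 (-0.01) were not called *in vitro* against adult. The part of interferon in the Psme2 value was not tested. Psme4 had 19.5 and 19.3 CPM against 11.0 and 9.27 (0.93 ± 0.24, adjusted p = 0.0066), a call that was lost without adult replicate 2.

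Psma8 was the only member that fell in these comparisons against adult. It had 5.20 and 7.60 CPM in adult, 1.51 and 1.91 *in vitro*, and 1.94 and 2.38 in slice 3 weeks, from 15 to 71 UMIs per library. The log2 fold changes were -1.88 ± 0.33 *in vitro* (adjusted p = 0.00066) and -1.52 ± 0.34 in slice 3 weeks (adjusted p = 0.0055). Per cell and without scaling for depth, the *in vitro* value was 0.34, a change of sign, where this scaling moved the median of all genes by 2.16. In slice 1 day, Psma8 had 5.24 and 3.61 CPM and was not called (-0.57 ± 0.35). In slice 1 week it had 3 and 1 UMIs. The core subunit Psma7, to which Psma8 is related, had 209 and 232 CPM in adult and 400 and 428 *in vitro*.

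**Figure D3:**
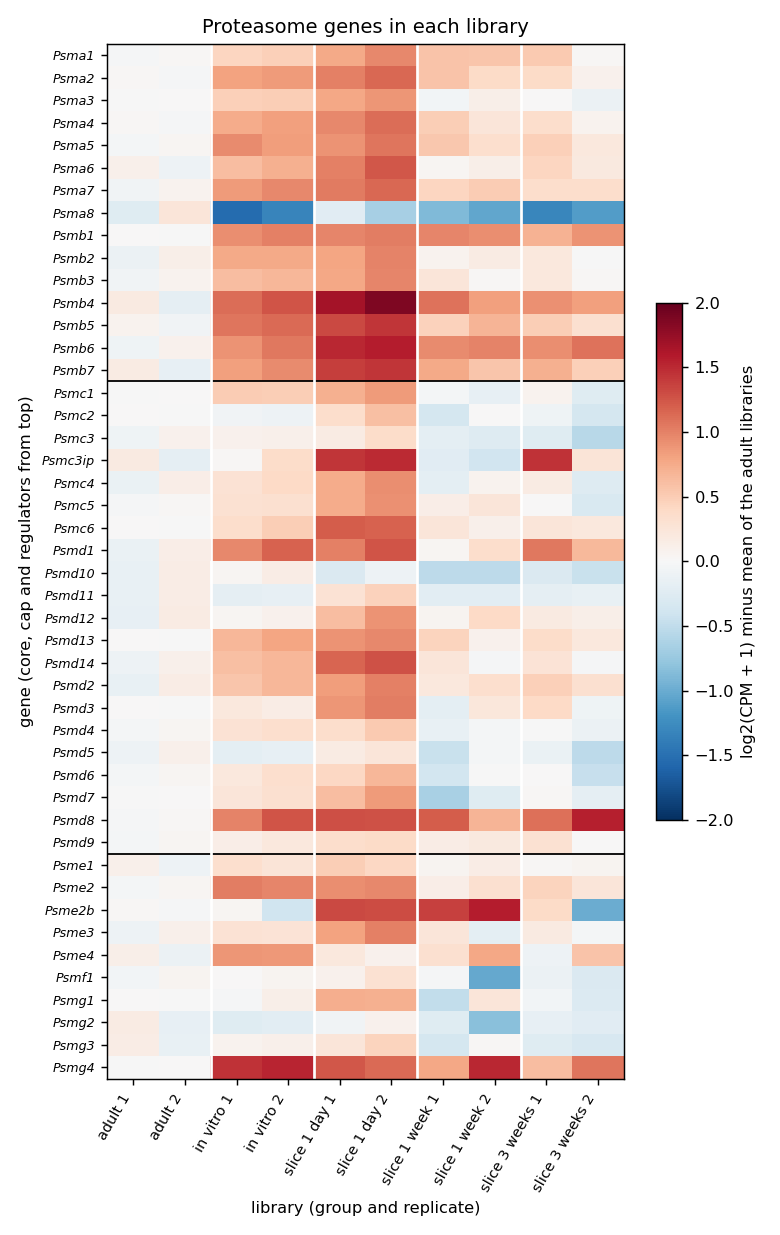
Log2(CPM + 1) of each tested member minus the mean of the adult libraries (colour, from -2 to 2) in the 10 libraries. Genes are ordered by class, with black lines between core, cap and regulators. The core apart from Psma8 is red in both slice 1 day and both *in vitro* libraries. Psma8 is blue *in vitro* and lies below the adult mean in both slice 1 day libraries as well.

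Later slices were nearer to adult. In slice 1 week against adult, 7 of 46 members were called higher (15% of all tested genes) and none lower (13.6%), with 2 lower at an unadjusted p under 0.05 and none with DESeq2. These were Psmb1, Psmb4, Psmb6, Psmb7, Psmd8, Psme2b and Psmg4. Psme2b was not called without any of the 4 libraries compared, and Psmb7 not without adult replicate 2 or slice 1 week replicate 1, with library size alone (0.46) or in cells thinned to 1500 UMIs (0.45). In slice 1 week replicate 1, cells with neutrophil markers had a proteasome share of 0.388%, against 0.586% in cells with neither neutrophil nor monocyte markers. Without cycling, neutrophil-marker and monocyte-marker cells, 6 members were called higher and 1 lower in slice 1 week, and Psmb7 (0.50) was not called. In slice 3 weeks, 7 were called higher (18%) and Psma8 lower (17.5%), which was not called in thinned cells (-1.37). These were Psmb1, Psmb4, Psmb6, Psmb7, Psmd1, Psmd8 and Psmg4. The members' share of higher calls is near that of all genes in both comparisons, and their share of lower calls is below it. Because both use the same adult libraries, no overlap between the lists was tested.

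Among the genes above adult in the later slices, Psmb6 had 426 and 440 CPM at 1 week and 421 and 469 at 3 weeks, against 208 and 236 in adult. Its log2 fold changes were 0.96 ± 0.15 and 1.00 ± 0.14. Psmd8 had 321 and 223 CPM at 1 week and 298 and 408 at 3 weeks (0.99 ± 0.21 and 1.35 ± 0.20), and it had the largest rise of all members at 3 weeks. Without slice 1 week replicate 1 the 1 week value was 0.71 and not called. Psmb4 had 166 and 138 CPM at 1 week and 147 and 138 at 3 weeks (0.97 ± 0.18 and 0.87 ± 0.16), and in cells thinned to 1500 UMIs the 1 week value was 0.64 and not called. Psmb5 had 180 and 210 CPM at 1 week and 183 and 164 at 3 weeks, and its log2 fold changes of 0.56 ± 0.15 and 0.41 ± 0.14 were under the fold limit. At 1 week it was called with DESeq2 (0.60), with only these groups in the fit (0.62), with the study identifier as a covariate (0.64), and without adult replicate 1 (0.68), slice 1 day replicate 2 (0.62) or slice 1 week replicate 1 (0.71). Psmb7 was called at 3 weeks (0.59 ± 0.16, adjusted p = 0.013), but not without adult replicate 2 (0.44) or slice 3 weeks replicate 1 (0.47), or with library size alone (0.39). Psmd1 had 55.3 and 69.1 CPM at 1 week (0.16 ± 0.22) and 113 and 85.6 at 3 weeks (0.87 ± 0.18). Psmg4 had 48.4 and 81.9 CPM at 1 week (1.12 ± 0.25, not called without slice 1 week replicate 2, at 0.75, or in thinned cells, at 1.18) and 43.7 and 60.2 at 3 weeks (0.90 ± 0.20). Psmd14 had 74.1 and 61.4 CPM at 1 week and 75.3 and 60.8 at 3 weeks, which overlapped with adult.

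Over slice culture, the members went down from the 1 day level. In slice 3 weeks against slice 1 day, 28 of 46 members were called lower, where 12.8% of all tested genes were, and none higher (13.9%), also at an unadjusted p under 0.05 or with DESeq2. These were 11 core, 12 cap and 5 regulator genes, and 18 members were called without slice 1 day replicate 2. Without cycling, neutrophil-marker and monocyte-marker cells, 33 were called lower. Psmd14 fell from 141 and 152 CPM to 75.3 and 60.8 (-1.11 ± 0.15, adjusted p = 0.00077), and Psmb5 from 328 and 354 to 183 and 164 (-0.97 ± 0.14, adjusted p = 0.00099). Psmd8 (0.07 ± 0.20), Psmd1 (-0.28 ± 0.18) and Psmb1 (-0.21 ± 0.13) were not called. Psme3 fell by 0.86 ± 0.15 and Psme2 by 0.59 ± 0.14. Psme2 lay at the fold limit and was not called without adult replicate 1 (-0.58), slice 1 day replicate 2 (-0.57) or slice 3 weeks replicate 2 (-0.49), or with no filter on low counts (-0.56).

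The comparisons of slice 1 week and of *in vitro* with slice 1 day were added after the shares were seen. In slice 1 week against slice 1 day, 26 of 46 members were called lower (5.26% of all tested genes) and none higher (4.92%), also at an unadjusted p under 0.05 or with DESeq2. The calls rest on few libraries: 2 were left without slice 1 week replicate 1, 4 without slice 1 day replicate 2, 15 without slice 1 week replicate 2 and 17 without slice 1 day replicate 1, with the lone library of a group assumed to vary like the others. Without cycling, neutrophil-marker and monocyte-marker cells, 30 were called lower. In cells thinned to 1500 UMIs 6 were called lower, and 14 with UMIs per cell without scaling for depth. Psmd7, a lid subunit named after its values were seen, had the largest called change, from 173 and 203 CPM to 71.1 and 94.7 (-1.22 ± 0.18, adjusted p = 0.0041, and not called without slice 1 week replicate 1, at -1.01). Psmb1 had 405 and 389 CPM in slice 1 week and 404 and 418 in slice 1 day, which overlapped (-0.05 ± 0.14).

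*In vitro* against slice 1 day, 10 of 46 members were called lower (18.6% of all tested genes) and Psme4 higher (13.3%). The lower calls were 2 without *in vitro* replicate 1, 1 without *in vitro* replicate 2 and 3 without slice 1 day replicate 2. Psme4 had 19.5 and 19.3 CPM *in vitro* and 11.8 and 10.8 in slice 1 day (0.78 ± 0.24, adjusted p = 0.029). It was not called without any of the 4 libraries compared. Psmc6 had the lowest adjusted p of the members called lower, with 89.1 and 98.4 CPM *in vitro* against 161 and 158 (-0.77 ± 0.13, adjusted p = 0.0011), and was named after its values were seen.

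*In vitro* against slice 3 weeks, 5 of 46 members were called higher, Psmb2, Psmb5, Psmc1, Psme2 and Psmg4, where 13.3% of all tested genes were, and none lower (20%), also at an unadjusted p under 0.05 or with DESeq2. Without the fold limit 17 were higher (16.4% of all tested genes). Psmb5 had 274 and 287 CPM *in vitro* against 183 and 164 (0.69 ± 0.14, adjusted p = 0.0034), and Psmb2 had 366 and 367 against 250 and 215 (0.65 ± 0.15, adjusted p = 0.0068). Psme2 had 319 and 310 CPM against 214 and 186 (0.65 ± 0.14, adjusted p = 0.004), and Psmc1 134 and 134 against 99.3 and 79.3 (0.59 ± 0.14, adjusted p = 0.009). Psmg4 had 78.2 and 82.7 against 43.7 and 60.2 (0.62 ± 0.19, adjusted p = 0.027). The groups did not overlap in any of these genes. The count rose to 15 without slice 3 weeks replicate 1, to 13 without either slice 1 week library, to 9 without *in vitro* replicate 1, and to 8 without adult replicate 1 or slice 1 day replicate 2. Psmg4 was not called without *in vitro* replicate 1 (0.74), *in vitro* replicate 2 (0.66) or slice 3 weeks replicate 1 (0.42), or with the study identifier as a covariate (0.52). Psmc1 was not called without slice 3 weeks replicate 2 (0.50), and Psmb5 was the member still called with library size alone, which gave 0.48 for Psmc1, 0.52 for Psmg4 and 0.55 for both Psmb2 and Psme2.

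The ratio of core to cap UMIs within a library is not changed by scaling between libraries. It was 1.28 and 1.19 in adult, 1.67 and 1.64 *in vitro*, 1.60 and 1.58 in slice 1 day, 1.70 and 1.63 in slice 1 week, and 1.47 and 1.48 in slice 3 weeks. All 8 cultured libraries lay above both adult libraries. The summed UMIs of Psmb8, Psmb9 and Psmb10 relative to Psmb5, Psmb6 and Psmb7 were highest in adult, at 1.16 and 1.16. The ratio was 0.698 and 0.586 *in vitro*, 0.381 and 0.352 in slice 1 day, 0.511 and 0.529 in slice 1 week, and 0.505 and 0.419 in slice 3 weeks. Of the immunoproteasome genes, none was called *in vitro* against adult (0.25 ± 0.13 for Psmb8, -0.01 ± 0.15 for Psmb9 and -0.01 ± 0.18 for Psmb10). In slice 1 day Psmb9 was lower (-1.18 ± 0.16, adjusted p = 0.00017), and Psmb8 (-0.04 ± 0.13) and Psmb10 (-0.04 ± 0.18) were not called, while Psmb5, Psmb6 and Psmb7 were called higher in both groups. Psmb9 was also lower than adult in slice 1 week (-1.05 ± 0.20, adjusted p = 0.0029) and slice 3 weeks (-0.99 ± 0.16, adjusted p = 0.00075). Psmb10 was lower in slice 3 weeks (-0.72 ± 0.18, adjusted p = 0.0097) and not called in slice 1 week (-0.29 ± 0.20). Psmb8 was called in neither (-0.23 ± 0.14 in slice 1 week and -0.38 ± 0.13 in slice 3 weeks). Psme1 and Psme2 together relative to Psme3 had overlapping values in adult (8.76 and 7.13) and slice 1 day (7.37 and 6.31), and 10.5 and 10.2 *in vitro*.

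**Figure D4:**
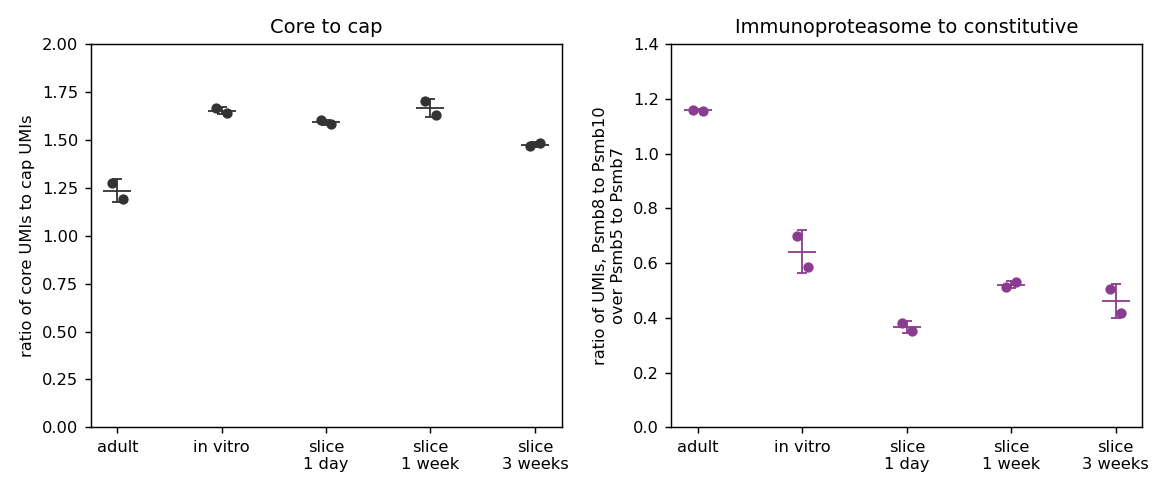
Ratio of core to cap UMIs (left) and of immunoproteasome (Psmb8, Psmb9, Psmb10) to constitutive proteolytic subunit UMIs (Psmb5, Psmb6, Psmb7; right) per group. Points are libraries, bars means and error bars SDs (n = 2). Adult is lowest on the left (mean 1.23) and highest on the right (mean 1.16).

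Cells with cycling genes were compared with the other cells of the same library. Cells were thinned to 1500 UMIs and called cycling with at least 2 UMIs of 30 mitotic genes, which gave 10.3% and 16.4% of cells *in vitro*, 12.3% and 17.2% in slice 1 day, 11.3% and 16.1% in slice 1 week, 15.3% and 6.63% in slice 3 weeks, and 0.369% and 0.412% in adult. Adult and slice 1 week libraries had under 20 such cells each and were not compared. Cycling cells had a higher proteasome share in all 6 libraries, 0.799% against 0.647% and 0.829% against 0.643% *in vitro*, 1.05% against 0.895% and 1.01% against 0.974% in slice 1 day, and 0.719% against 0.583% and 0.625% against 0.534% in slice 3 weeks. In thinned cells it was higher in all 6 as well, by least in slice 3 weeks replicate 2 (0.627% against 0.532%). In slice 1 day the other cells included those with neutrophil markers. With neutrophil-marker and monocyte-marker cells left out of both classes, which was added after the shares were seen, the shares in slice 1 day were 1.05% against 0.925% and 1.08% against 1.02%, and cycling cells were higher in the other 4 libraries as well.

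**Figure D5:**
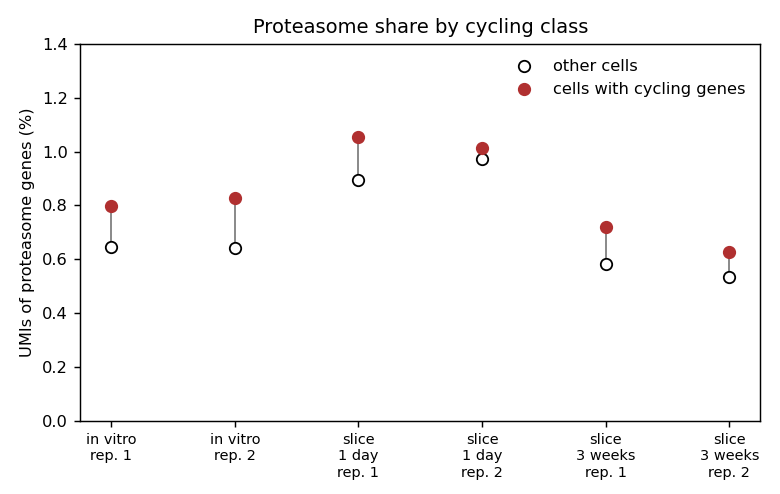
Share of UMIs of proteasome genes (%) in cells with cycling genes (filled) and in other cells (open) of the 6 libraries compared. The line joins cells of 1 library. The filled point is higher in each library, by least in slice 1 day replicate 2 (1.01% against 0.974%).

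With the library as a block, 2 of 46 members were called higher in cycling cells, where 7.04% of 10163 tested genes were, and none lower (5.28%), with 1 lower at an unadjusted p under 0.05 and none with DESeq2. These were Psmc3ip (1.79 ± 0.18, adjusted p = 8.5e-06) and the assembly chaperone Psmg2 (0.63 ± 0.09, adjusted p = 0.00022). In cells thinned to 1500 UMIs, 43 members were tested, Psmc3ip not among them, Psmg2 was not called (0.19 ± 0.21) and Psmd14 was (0.65 ± 0.12, adjusted p = 0.00038). Psmc3ip had 10.2 and 9.36 CPM in cycling cells *in vitro* against 2.42 and 3.22 in other cells, and 19.4 to 34.5 CPM against 3.19 to 9.81 in the slice libraries. Without the fold limit 20 members were higher, where 13.1% of all tested genes were, such as Psmd14, at 0.47 ± 0.08 in unthinned cells, and Psme3, at 0.40 ± 0.08. Cap genes made up 12 of these 20.

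Within slice 1 day, cells with neutrophil markers had the lower proteasome share, 0.498% in replicate 1 and 0.493% in replicate 2. Cells with monocyte markers had 0.839% and 0.957%, and cells with neither had 0.947% and 1.03%. Without cycling, neutrophil-marker and monocyte-marker cells, the slice 1 day share was 0.925% and 1.02%, and the log2 fold changes against adult were 1.84 for Psmb4, 1.68 for Psmb6, 1.42 for Psmb5, 1.47 for Psmb7, 1.28 for Psmd14 and 1.02 for Psme2. In these 6 genes the change was at least as large without those cells.

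The partners of the proteasome were counted from a list of 45 symbols of ubiquitin, its enzymes, shuttle factors, assembly factors and regulators, of which 42 were tested. Against adult, 17 rose and 4 fell in slice 1 day, where 24.9% and 25.4% of all tested genes did. *In vitro*, 10 rose and 4 fell (22.4% and 28.5% of all tested genes). In slice 1 week 8 rose and 3 fell (15% and 13.6%), and in slice 3 weeks 8 rose and 3 fell (18% and 17.5%). In slice 3 weeks against slice 1 day, 13 fell (12.8% of all tested genes), and *in vitro* against slice 3 weeks, 4 rose (13.3%).

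Among them, the deubiquitinases of the cap rose in slice 1 day, Usp14 by 1.22 ± 0.13 (50.9 and 53.7 against 122 and 121 CPM) and Uchl5 by 1.45 ± 0.19 (37.9 and 38.3 against 98.3 and 109 CPM). Uchl5 was also the partner called in cycling cells (0.83 ± 0.08). Pomp, the maturation factor of the core, had 361 and 363 CPM in adult and 436 and 461 in slice 1 day and was not called in any of the comparisons. Adrm1, the ubiquitin receptor of the cap that binds Uchl5, was not called in slice 1 day against adult (0.35 ± 0.14).

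Nfe2l1 and Nfe2l2 encode the factors known to drive proteasome genes. Nfe2l1 had 20.1 and 24.3 CPM in adult, 28.3 and 30.1 in slice 1 day, and 32.8 and 31.7 *in vitro*. In the later slices it had 21.7 and 12.8 CPM at 1 week and 33.9 and 62.6 at 3 weeks. It was called against adult in slice 3 weeks (1.14 ± 0.25, adjusted p = 0.0051), and not in slice 1 day (0.40 ± 0.26), slice 1 week (-0.23 ± 0.39) or *in vitro* (0.54 ± 0.25). Nfe2l2 had 251 and 237 CPM in adult and 140 and 126 in slice 1 day, a fall of 0.88 ± 0.14 (adjusted p = 4e-04). It was also called lower in slice 1 week (-0.78 ± 0.15, adjusted p = 0.003). In slice 3 weeks (-0.54 ± 0.14, adjusted p = 0.01) and *in vitro* (-0.37 ± 0.14, adjusted p = 0.037) it passed the FDR but not the fold limit. Members with and without TGACNNNGC in a promoter had median log2 fold changes of 0.99 (n = 6) and 0.91 (n = 32) in slice 1 day, and 0.68 and 0.47 *in vitro*. For CGGAAG the medians in slice 1 day were 0.91 (n = 22) and 0.91 (n = 16).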

How the data were processed

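The 10 libraries are 10x Genomics 3' libraries of sorted microglia in 5 groups of 2, grouped by GEO's labels. The authors deposited 1 table of raw UMI counts per library, and the submitters' processing notes name Cell Ranger 1.3.0 and mm10. The deposited counts are whole numbers and had not been filtered by the limits used here. The annotation used upstream is not given in the sources used here. A gene missing from a table was taken as 0, and repeated symbols were summed.

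Counts were summed over the kept cells of a library and fitted with edgeR 4.0.16 (R 4.3.3; glmQLFit, glmQLFTest, TMM, filterByExpr with a minimum count of 10) in 1 model of 5 groups with 12155 genes (biological coefficient of variation 18.2%). Calls were made at FDR < 0.05 over all tested genes and a fold change > 1.5. The SE is that of the fitted log2 fold change. Cells with cycling genes were compared in 6 libraries with the library as a block, without the 30 cycling genes. Alternatives included DESeq2 1.42.0, scaling, filters, cells and leaving out libraries. The scripts were tested on simulated data. GENCODE M21 gave gene coordinates, and RefSeq gave promoters (GRCm38.p6).

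The members and gene lists were chosen with earlier results of these data known. Values were given for the 2 largest called rises and falls of each class among called genes in 3 comparisons (slice 3 weeks with adult, and *in vitro* with each of these), for Psmb5 to Psmb7, Psme1 to Psme4, Psmf1 and Psmd14, for genes that are no subunit, and for 7 listed partners, of which 1 is not reported here. Neutrophil-marker cells had at least 3 UMIs of 7 markers making up at least 1% of UMIs, and monocyte-marker cells at least 3 UMIs of 5 markers. No doublet caller was run. Intervals from 2 libraries rest on few replicates.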

Additional observations from a re-analysis of the deposited data

How the results depend on the processing

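Of 400 values recomputed for the counts of called members and the shares of UMIs, 342 stayed within 1.5 times the count or 1 SD of the share. Some of these could not differ, since a share with 1 library left out always lies within 1 SD of the mean of both libraries. Counts of 0 in both fits were also taken as unchanged. The fits with DESeq2 and with the replicate block left counts as they were or moved them by under 1.5 times, except DESeq2 for *in vitro* against slice 3 weeks (8 higher). The replicate numbers do not pair the samples (correlations of deviations -0.113 to 0.0941), and with the replicate block 22 members were lower in slice 1 week against slice 1 day, where the count without it was 26.

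With library size alone, 11 members were called higher *in vitro* against adult, 3 lower in slice 1 week and 3 lower in slice 3 weeks against adult, 1 higher *in vitro* against slice 3 weeks, and 0 higher and 19 lower *in vitro* against slice 1 day. This scaling moved the median of all genes by -0.30 to -0.08 on the log2 scale. UMIs per cell without scaling for depth moved that median by 2.16 *in vitro*, 1.55 in slice 1 day, 1.19 in slice 1 week and 1.09 in slice 3 weeks against adult, by 1.08 *in vitro* against slice 3 weeks, and by -0.46, 0.62 and -0.36 in slice 3 weeks, *in vitro* and slice 1 week against slice 1 day. It gave 45 higher and 0 lower *in vitro*, 37 higher in slice 1 week, and 42 higher and 0 lower in slice 3 weeks against adult, 44 higher *in vitro* against slice 3 weeks, 3 higher and 1 lower *in vitro* against slice 1 day, and 14 lower in slice 1 week against slice 1 day. Among the genes named by the rule, signs turned with it, where a value was called in either fit, in Psma8 (0.34) and Psme2b (1.99) *in vitro* against adult, Psmc1 (1.11) in slice 1 week, Psmc1 (1.04), Psme2b (0.98) and Psmf1 (0.91) in slice 3 weeks, Psmb6 (1.05) and Psmd8 (0.88) *in vitro* against slice 3 weeks, and Psmb4 (0.030) and Psmd14 (0.030) *in vitro* against slice 1 day. Signs of other members turned as well, such as Psmc2 (2.09), Psmd11 (2.04), Psmd5 (2.01) and Psmg2 (1.89) *in vitro* against adult.

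*In vitro* against slice 3 weeks, the members called higher were 15 with no filter on low counts, 12 with all barcodes, 10 with only these groups, 13 without the slice 1 week libraries, 8 with the study identifier as a covariate and 17 with no fold limit. With no fold limit, 11 were higher in slice 1 week against adult, 18 lower *in vitro* against slice 1 day and 20 higher in cycling cells. With cells thinned to 1500 UMIs, 4 were higher in slice 1 week and 0 lower in slice 3 weeks against adult, 5 lower *in vitro* and 6 lower in slice 1 week against slice 1 day, and 1 higher in cycling cells. With no filter on low counts, 5 were lower *in vitro* against slice 1 day. Without cycling, neutrophil-marker and monocyte-marker cells, 1 was lower in slice 1 week against adult. The cause of these changes was not tested. Shares of all tested genes called were computed only for the fit described in the processing. Counts from the alternative fits, here and above, can therefore not be compared with all genes. UMIs per cell moved the median of all genes as well, so those counts do not set the members apart from other genes.

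The share of UMIs *in vitro* was 0.645% without those cells, 0.654% in thinned cells and 0.655% as a mean over cells, against 0.673%. In slice 1 day it was 0.892% both in thinned cells and as a mean over cells, against 0.950%. Leaving out 1 library at a time gave 5 to 15 higher *in vitro* against slice 3 weeks and 0 to 1 lower, 0 to 1 lower in slice 1 week and 1 to 2 lower in slice 3 weeks against adult, 18 to 32 lower in slice 3 weeks, 0 to 1 higher and 1 to 14 lower *in vitro*, and 2 to 29 lower in slice 1 week, against slice 1 day. The fit of cycling cells had no adult or slice 1 week library, so leaving these out changes nothing there. The slice 1 week libraries, with 148 and 61 cells, limit what low genes can show.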
